A study of Mus musculus with 15 samples.

Results

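The genes described here are 10 sensors, transcription factors, chaperones and targets of the unfolded protein response and the integrated stress response: Hspa5, Hsp90b1, Xbp1, Ern1, Ern2, Atf4, Ddit3, Trib3, Asns and Chac1. They were picked by symbol and are 10 of the 78298 genes listed in the count files, and all 10 were among the 17560 genes that passed the filter on low counts. The symbol Ddit3 stands on 2 rows, and the row ENSMUSG00000116429 had 0 counts in all 15 libraries, so ENSMUSG00000025408 was used. Poly-A RNA of primary mouse small intestinal organoids was sequenced in 5 conditions with 3 replicate libraries each. All 5 conditions were stable cultures made by lentiviral transduction and antibiotic selection, from female mice of C57BL/6J background. Halo-NLS organoids expressed V5-Halo-NLS, a tag with no transcription factor, from the L30 promoter with IRES Puro, and were the control. SOX9-mEGFP and SOX9-Halo budding organoids expressed Sox9 fused to mEGFP-V5 or Halo-V5 from the same promoter, also with IRES Puro. SOX9-mEGFP spheroids carried in addition H2B-mScarletI with IRES Neo, and SOX9-Halo spheroids carried H2B-mEGFP with IRES Zeo. The spheroids were cultures of the SOX9 lines at a later passage, so morphology, time in culture and the H2B transgene cannot be told apart. At each stage the paper places the SOX9-Halo culture after the SOX9-mEGFP culture in time in culture and spheroid progression. In differences between the lines, line and tag thus cannot be told apart from time in culture and progression, nor in spheroids from the H2B transgene. Each condition was a single culture line, so the p-values measure the spread between replicate libraries and not between lines. The main test estimated that spread for each gene over all 15 libraries together, not within the compared conditions alone.

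The unfolded protein response is switched on when misfolded proteins collect in the endoplasmic reticulum (ER). IRE1 kinases splice the Xbp1 mRNA, ATF6 is cut to release a transcription factor, and PERK phosphorylates eIF2alpha, and together they raise chaperones, degradation of misfolded proteins and folding enzymes. PERK shares eIF2alpha with kinases that sense amino acid shortage, haem shortage and double-stranded RNA, and this common branch, the integrated stress response, raises translation of Atf4, whose targets make and import amino acids and load tRNAs. In the intestine the response is best known from secretory cells, since goblet and Paneth cells make large amounts of mucins and antimicrobial peptides and lean on IRE1 and XBP1. Counts of a gene do not show the splicing of Xbp1, the translation of Atf4 or the phosphorylation of any sensor, and none of these was measured here.

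Between 28062722 and 40559766 reads per library were counted on genes. Sox9, which sums the transgene and the mouse gene, stood at 9.10 to 22.9 CPM (reads of a gene relative to the library total, scaled by the trimmed mean of M-values, TMM) in Halo-NLS and at 193 to 705 in 11 of the 12 SOX9 libraries, while SOX9-Halo budding replicate 1 had 39.8. Summed markers of epithelium ran from 4276 to 9364 CPM over the 15 libraries, and the sums for fibroblast, immune and endothelial markers never passed 3.80. A gene was called different where the quasi-likelihood test of edgeR over all genes gave an adjusted p of at most 0.01, the log2 fold change was at least 1 in size and the mean normalized count at least 10.

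Promoters of these genes are shown first because 2 DNA elements define both pathways. The ER stress element (ERSE, CCAAT and CCACG with 9 bases between) is the classic binding site of ATF6 and XBP1, and the C/EBP-ATF response element (CARE, TGATGNAA) that of ATF4 dimers. RefSeq promoters, 250 bases before to 50 after the start, were found for 9 of the 10 genes, all but Ern2, and were placed on GRCm39 by exact match. On both strands, ERSE was present in 0.119% of 32851 RefSeq promoters (39) and CARE in 3.97% (1304). ERSE stood 1 time in Hspa5 and 2 times in Hsp90b1, and CARE 1 time each in Asns, Chac1 and Trib3. The ER chaperone pair thus held one element and 3 of the ATF4 targets the other. The CARE of Asns began 23 bases before the start, that of Chac1 193 bases before it, and that of Trib3 at base 15 of the transcript. These are distances from the RefSeq starts, which differ from the canonical starts of GENCODE M39, so that the CARE of Asns began 487 bases and that of Trib3 46 bases after the canonical start, and that of Chac1 159 bases before it. Neither was found in these windows of Xbp1, Ern1, Atf4 and Ddit3, and ERSE-II (ATTGG and CCACG with 1 base between, 0.0365% of promoters) and UPRE (TGACGTGG, 0.676%), 2 other unfolded protein response elements, were in none of the 9. ERSE-II and UPRE share the letters CCACG or their complement with ERSE. The 250 bases before the start are printed 5′ to 3′ on the strand of the gene for 2 chaperones and 2 ATF4 targets, with ERSE in capitals in the first pair and CARE in the second.
Hspa5, chr2:34661852-34662101, plus strand: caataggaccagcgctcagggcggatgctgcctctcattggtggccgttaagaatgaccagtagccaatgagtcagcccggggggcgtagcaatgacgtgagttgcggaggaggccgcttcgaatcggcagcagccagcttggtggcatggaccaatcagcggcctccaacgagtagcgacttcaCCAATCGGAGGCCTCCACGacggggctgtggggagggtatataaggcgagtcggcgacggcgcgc
Hsp90b1, chr10:86541309-86541558, minus strand: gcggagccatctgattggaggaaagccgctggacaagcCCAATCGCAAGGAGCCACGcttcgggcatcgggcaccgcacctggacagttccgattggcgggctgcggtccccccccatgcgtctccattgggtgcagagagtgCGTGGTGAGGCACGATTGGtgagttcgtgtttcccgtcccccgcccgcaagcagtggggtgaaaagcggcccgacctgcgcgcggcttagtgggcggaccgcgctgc
Asns, chr6:7693210-7693459, minus strand: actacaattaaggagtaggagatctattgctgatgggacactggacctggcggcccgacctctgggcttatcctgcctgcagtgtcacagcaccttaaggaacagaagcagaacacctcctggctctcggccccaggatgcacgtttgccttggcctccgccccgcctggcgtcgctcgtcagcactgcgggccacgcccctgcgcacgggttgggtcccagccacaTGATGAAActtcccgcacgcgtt
Chac1, chr2:119181473-119181722, plus strand: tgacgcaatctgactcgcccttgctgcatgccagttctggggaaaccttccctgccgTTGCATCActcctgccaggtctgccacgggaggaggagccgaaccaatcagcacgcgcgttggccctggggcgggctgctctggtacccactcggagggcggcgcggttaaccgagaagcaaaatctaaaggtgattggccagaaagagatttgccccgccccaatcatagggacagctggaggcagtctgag

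Compared per kilobase of the canonical transcript, the mean levels over the 15 libraries fell into 3 tiers. Atf4 stood at 209 CPM per kb, Xbp1 at 178, Hspa5 at 143 and Hsp90b1 at 97.6. Asns at 43.1, Trib3 at 37.5, Ddit3 at 25.7 and Chac1 at 22.0 followed. The 2 IRE1 genes were lowest, Ern1 at 6.45 and Ern2 at 3.26 CPM per kb. Neighbours in this order overlapped in their ranges over the 15 libraries. All levels below are CPM of the gene, for comparison between libraries only.

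**Figure D1:**
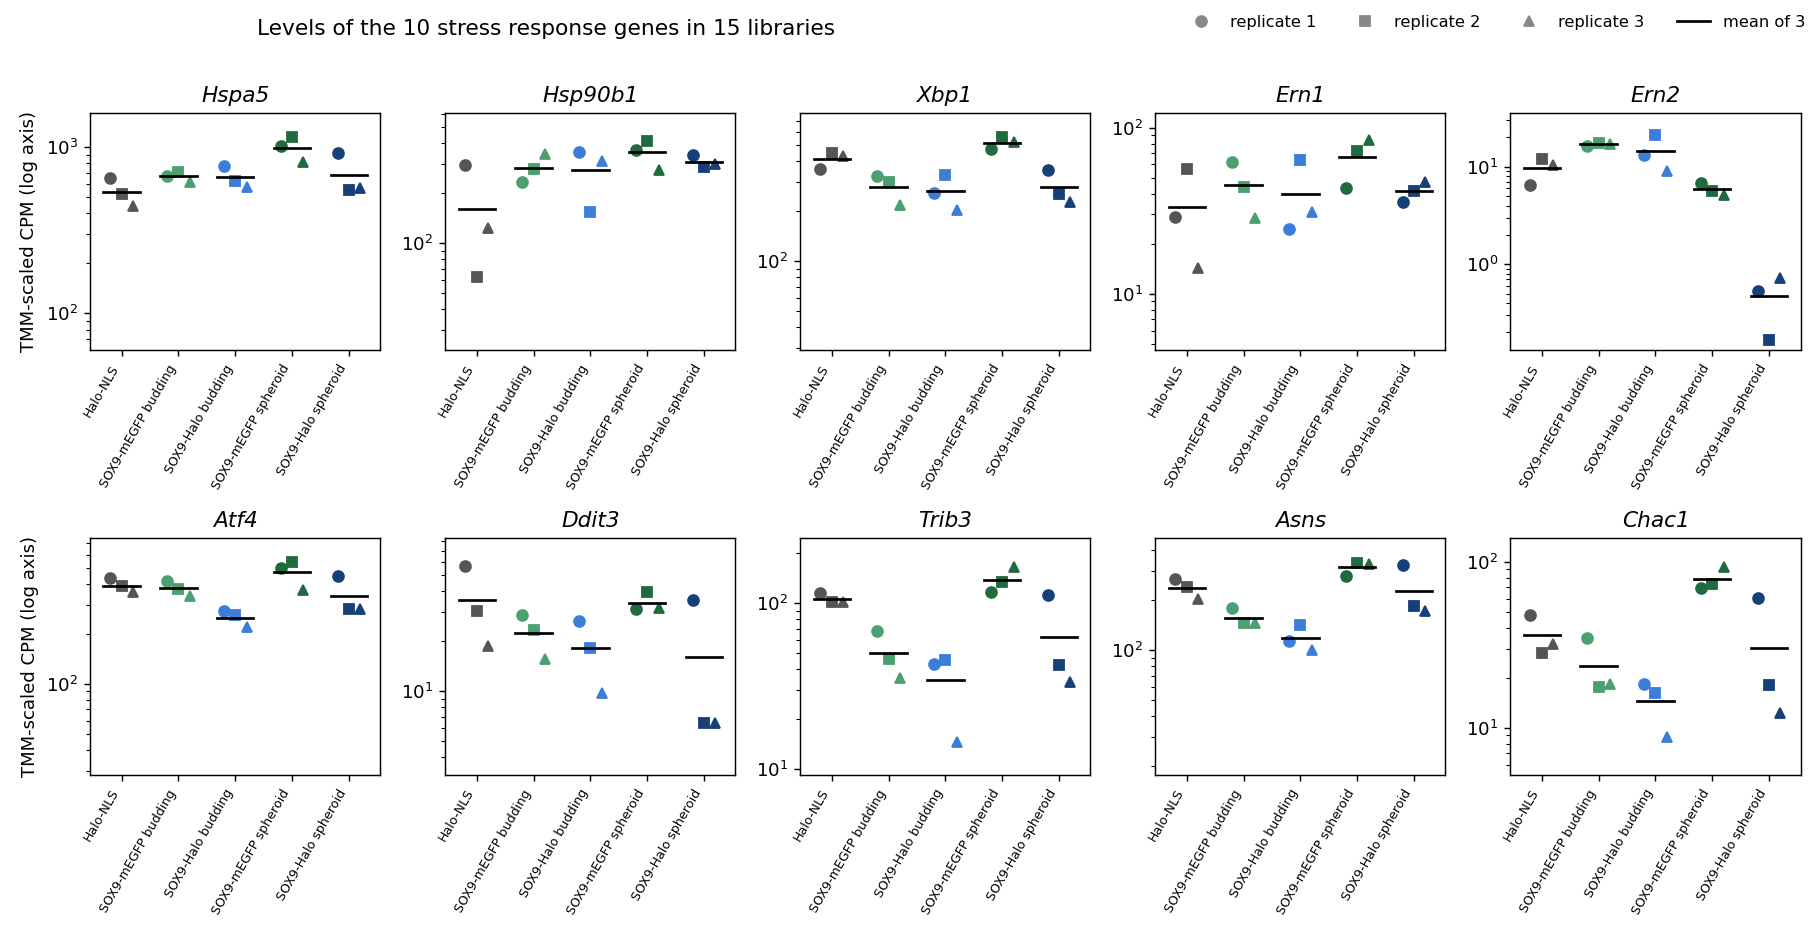
TMM-scaled CPM on a log axis for the 10 genes in 15 libraries, by condition, with replicates as circle, square and triangle and the mean of 3 as a bar. Ern2 in the 3 SOX9-Halo spheroid libraries lies between 0.169 and 0.724 CPM, under all other libraries, and replicate 1 of the same condition stands above its other two for Atf4, Ddit3, Trib3, Asns and Chac1.

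Ern2 encodes IRE1beta, the form of the ER stress sensor found in mucosal secretory epithelium (ENSMUSG00000030866, chromosome 7, bases 121769116 to 121785468, minus strand, GRCm39, as for all positions below). It was the member with the largest difference between conditions. The Halo-NLS libraries had 6.54, 12.1 and 10.5 CPM. SOX9-mEGFP budding organoids had 16.4, 17.5 and 17.2 CPM, and SOX9-Halo budding organoids 13.3, 21.0 and 9.04. Budding organoids of the mEGFP line lay above Halo-NLS with no overlap, but the difference of 0.81 on the log2 scale (SE 0.38) did not pass (adjusted p = 0.142). The SOX9-mEGFP spheroids had 6.82, 5.58 and 5.19 CPM, and the SOX9-Halo spheroids only 0.529, 0.169 and 0.724, which are 15, 6 and 27 reads. Against their own budding organoids, Ern2 fell by 1.54 on the log2 scale in SOX9-mEGFP spheroids (SE 0.38, adjusted p = 0.00655). In the SOX9-Halo line it fell by 4.92 (SE 0.46, adjusted p = 6.1e-07), 30.2-fold. The Halo line changed more than the mEGFP line by a log2 difference of -3.38 (SE 0.57, adjusted p = 8.8e-04), and of the 10 genes only Ern2 was called in this test of the difference, beside 7.39% of all genes tested. SOX9-Halo spheroids also lay 3.62 log2 units under SOX9-mEGFP spheroids, a log2 fold change of -3.62 (SE 0.44, adjusted p = 2.3e-05). The fall in the Halo line held in all 22 alternatives run, whereas that in the mEGFP line was called in no fit that left out one of its 6 libraries (log2 fold change -1.68 to -1.49, adjusted p = 0.0136 to 0.0306).

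Summed markers of goblet and Paneth cells, like Ern2, were lowest in SOX9-Halo spheroids. So were the sums of 6 enterocyte markers (1.86 to 5.69 CPM, against 204 to 507 in SOX9-mEGFP spheroids) and 4 tuft cell markers (1.92 to 3.00, against 4.73 to 11.3). The sum of 7 goblet cell markers (Muc2, Tff3, Spink4, Zg16, Fcgbp, Clca1 and Agr2) was 1739 to 9952 CPM over the Halo-NLS and budding libraries, 2601 to 3786 in SOX9-mEGFP spheroids and 17.1 to 22.9 in SOX9-Halo spheroids. In SOX9-Halo spheroids Zg16 had 0 counts in all 3 libraries, Muc2 0.141 to 0.353 CPM and Agr2 0.0268 to 0.212 CPM, and Fcgbp made up most of the sum with 14.3 to 21.4. The 7 Paneth cell markers (Lyz1, Defa17, Defa24, Defa30, Mmp7, Itln1 and Ang4) summed to 735 to 2068 CPM in Halo-NLS and budding libraries, 1119 to 1358 in SOX9-mEGFP spheroids and 3.35 to 5.93 in SOX9-Halo spheroids. In SOX9-mEGFP spheroids Mmp7 alone held 1107 to 1327 CPM of the Paneth sum and Lyz1 7.49 to 23.2, against 643 to 821 for Lyz1 in Halo-NLS. Defa17, Defa24, Defa30, Itln1 and Ang4 reached at most 4.34 CPM in any SOX9-mEGFP spheroid library. Itln1 was not lower in SOX9-Halo spheroids (1.82 to 4.94) than in SOX9-mEGFP spheroids (1.73 to 2.64). The Paneth sum of SOX9-mEGFP spheroids overlapped that of their budding organoids (1286 to 2068). The 6 enteroendocrine markers, of another secretory cell type, summed to 214 to 1061 CPM in Halo-NLS and budding libraries, 0.511 to 2.46 in SOX9-mEGFP spheroids and 0.225 to 0.510 in SOX9-Halo spheroids, so they were near 0 in both spheroid lines. In bulk libraries, fewer cells of a type and less RNA per cell cannot be told apart, and the part of the secretory cells in the values of Ern2 was not tested.

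**Figure D2:**
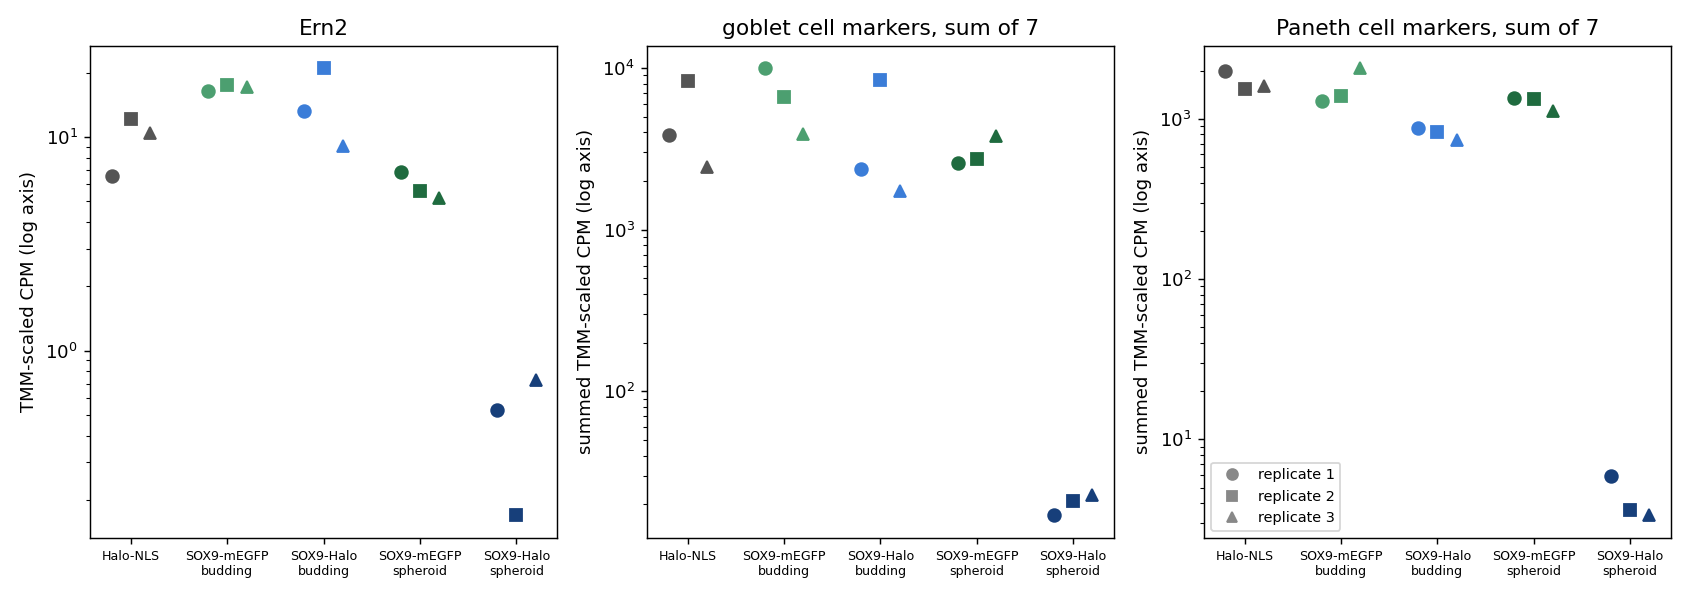
Ern2 and the summed markers of goblet and Paneth cells in TMM-scaled CPM on log axes, 1 point per library by condition. The 3 SOX9-Halo spheroid libraries are lowest in all 3 panels, at 0.169 to 0.724 CPM for Ern2, 17.1 to 22.9 for the goblet sum and 3.35 to 5.93 for the Paneth sum. In SOX9-mEGFP spheroids nearly all of the Paneth sum is Mmp7.

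Ern1, the gene of the widely expressed sensor IRE1alpha (ENSMUSG00000020715, chromosome 11, bases 106283818 to 106378686, minus strand), did not share the pattern of Ern2. Its levels were 28.9, 56.5 and 14.3 CPM in Halo-NLS, 62.4, 43.7 and 28.6 in SOX9-mEGFP budding organoids and 24.5, 63.7 and 30.9 in SOX9-Halo budding organoids. The spheroids held 43.2, 72.5 and 84.1 CPM in the mEGFP line and 35.5, 41.5 and 46.9 in the Halo line. All 5 conditions overlapped. The largest difference, SOX9-mEGFP spheroids against Halo-NLS, was 1.00 on the log2 scale (SE 0.46, adjusted p = 0.083).

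Xbp1, the transcription factor made active by IRE1 (ENSMUSG00000020484, chromosome 11, bases 5470606 to 5483027, plus strand), split the spheroid lines. Halo-NLS had 359.5, 451 and 431 CPM, and the budding organoids had 325, 299 and 218 with SOX9-mEGFP and 257, 328 and 204 with SOX9-Halo. Every budding library was thus under every Halo-NLS library, with log2 differences of -0.56 (SE 0.23, adjusted p = 0.097) and -0.65 (SE 0.23, adjusted p = 0.0555) that were not called. SOX9-mEGFP spheroids had 473, 556 and 520.1 CPM, the highest 3 of the 15 values, and SOX9-Halo spheroids 356, 255 and 227. SOX9-mEGFP spheroids exceeded their budding organoids by 0.88 (SE 0.23, adjusted p = 0.00826), under the fold threshold. The 2 spheroid lines differed by -0.89 for Halo minus mEGFP (SE 0.23, adjusted p = 0.00945), also under it, and in SOX9-Halo spheroids against their budding organoids the difference was 0.09 (SE 0.22, adjusted p = 0.796).

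Hspa5 encodes BiP, the main chaperone of the ER lumen and the textbook readout of the response (ENSMUSG00000026864, chromosome 2, bases 34661982 to 34668880, plus strand). Its levels were 657, 526 and 443 CPM in Halo-NLS, 672, 712 and 619.9 in SOX9-mEGFP budding organoids and 775, 631 and 576 in SOX9-Halo budding organoids. SOX9-mEGFP spheroids had 1016, 1151 and 815 CPM, which did not overlap Halo-NLS or the mEGFP budding organoids. SOX9-Halo spheroids had 926, 551 and 571, with replicate 1 apart from the other two. Against Halo-NLS, SOX9-mEGFP spheroids were 1.83-fold higher (log2 0.87, SE 0.23, adjusted p = 0.00629), which passed the adjusted p and stayed under the fold threshold. With library sizes alone in place of TMM the log2 difference was 1.13 (adjusted p = 7.2e-04), and without Halo-NLS replicate 1 it was 1.04 (adjusted p = 0.00371), both called. No other comparison of Hspa5 reached an adjusted p of 0.05.

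Hsp90b1 encodes GRP94, the HSP90 of the ER (ENSMUSG00000020048, chromosome 10, bases 86526073 to 86541446, minus strand). It was the member with the widest spread among control libraries, at 296, 62.2 and 124 CPM in Halo-NLS. SOX9-mEGFP budding organoids had 235, 279 and 343 CPM and SOX9-Halo budding organoids 355, 155 and 315. The spheroids had 367, 415 and 274 in the mEGFP line and 338, 287 and 298 in the Halo line. All SOX9 libraries were thus above the 2 lower control libraries, and the third control library lay among them. The differences from Halo-NLS were 0.83 (SE 0.43, adjusted p = 0.18) and 0.78 (SE 0.43, adjusted p = 0.195) for budding and 1.13 (SE 0.43, adjusted p = 0.0404) and 0.94 (SE 0.43, adjusted p = 0.0838) for spheroids, mEGFP first. Without Halo-NLS replicate 1 they were 1.63, 1.57, 1.93 and 1.74, and all 4 were called (adjusted p = 6.5e-04 to 0.00564). In that fit 11.9%, 12.9%, 31.7% and 32% of all genes were called. With this library kept, both spheroid differences were also called without the low-count filter (1.19, adjusted p = 7.1e-05, and 1.00, adjusted p = 0.00116). There 10.4% and 10.7% of all genes were called.

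Atf4 encodes the transcription factor at the centre of the integrated stress response (ENSMUSG00000042406, chromosome 15, bases 80139372 to 80141745, plus strand). It stood at 430.4, 385 and 355 CPM in Halo-NLS and 418, 372 and 336 in SOX9-mEGFP budding organoids. SOX9-Halo budding organoids had 274, 258 and 219 CPM, under all libraries of both, with a log2 difference from Halo-NLS of -0.64 (SE 0.22, adjusted p = 0.0502) and from SOX9-mEGFP budding organoids of -0.58 (SE 0.21, adjusted p = 0.352). Spheroids had 498, 543 and 364 CPM in the mEGFP line and 447, 280.4 and 283 in the Halo line. No difference of Atf4 was called, and the widest of those tested was 1.56-fold.

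Asns makes asparagine and carries the CARE printed above (ENSMUSG00000029752, chromosome 6, bases 7671667 to 7728461, minus strand). Halo-NLS had 267, 241 and 203 CPM, above the 178, 146 and 147 of SOX9-mEGFP budding organoids and the 113, 142 and 101 of SOX9-Halo budding organoids. The second of these differences was -1.001 (SE 0.24, adjusted p = 0.0145), short of the threshold, and the first -0.59 (SE 0.24, adjusted p = 0.094). Both spheroid lines stood above the budding organoids they came from, at 279, 336 and 333 CPM for mEGFP and 327, 185 and 171 for Halo, with no overlap in either. The log2 fold change was 1.01 in the mEGFP line (SE 0.24, adjusted p = 0.00471), called just over the fold threshold. In the Halo line it was 0.94 (SE 0.24, adjusted p = 0.00489), just under the threshold. Over the 6 fits that left out one of the Halo line's own libraries it ran from 0.60 to 1.09 (adjusted p = 0.00441 to 0.0361). The call in the mEGFP line was lost in 11 of 22 alternatives, among them DESeq2 (0.99, adjusted p = 0.00114) and 5 of the 6 fits that left out one of its own libraries, whose log2 fold changes over the 6 were 0.91 to 1.11 (adjusted p = 0.00875 to 0.0302). The change did not differ between the lines beyond its error (-0.07, SE 0.33, adjusted p = 0.943). Against Halo-NLS the spheroids differed by 0.41 (SE 0.24, adjusted p = 0.157) and -0.06 (SE 0.24, adjusted p = 0.859), so the level of Asns in budding organoids lay under both the control and the spheroids.

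Trib3, a pseudokinase that feeds back on ATF4 (ENSMUSG00000032715, chromosome 2, bases 152179337 to 152191958, minus strand), followed a like order of condition means. Halo-NLS had 116, 102 and 101 CPM, SOX9-mEGFP budding organoids 68.3, 46.3 and 35.7 and SOX9-Halo budding organoids 43.3, 45.7 and 14.6. Spheroids of the mEGFP line had 116, 135 and 165 CPM, and those of the Halo line 112, 42.3 and 33.7. The budding organoids were below Halo-NLS with no overlap, by -1.09 (SE 0.45, adjusted p = 0.101) and -1.62 (SE 0.45, adjusted p = 0.0253), neither called by edgeR, the second called by DESeq2 (-1.64, adjusted p = 0.00402). SOX9-mEGFP spheroids exceeded their budding organoids with a log2 fold change of 1.47 (SE 0.45, adjusted p = 0.0223), not called here. It was called by DESeq2 (1.45, adjusted p = 0.00958) and in fits on these 6 libraries alone (1.44, adjusted p = 0.0038). In the Halo line spheroids and budding organoids overlapped, with a log2 fold change of 0.86 (SE 0.44, adjusted p = 0.142). Over the 6 fits that left out one of the Halo line's own libraries it ran from 0.14 to 1.11 (adjusted p = 0.0754 to 0.814).

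Chac1, a glutathione-degrading enzyme whose CARE is also printed above (ENSMUSG00000027313, chromosome 2, bases 119180757 to 119184866, plus strand), had the largest difference between mEGFP spheroids and budding organoids among the integrated stress response members. Its levels were 47.9, 28.3 and 31.7 CPM in Halo-NLS, 34.8, 17.7 and 18.3 in SOX9-mEGFP budding organoids and 18.4, 16.1 and 8.84 in SOX9-Halo budding organoids. SOX9-mEGFP spheroids had 69.4, 73.8 and 92.9 CPM, above the other 12 libraries. SOX9-Halo spheroids had 60.7, 18.1 and 12.3. The log2 fold change in the mEGFP line was 1.74 (SE 0.50, adjusted p = 0.0151), not called, and called by DESeq2 (1.71, adjusted p = 0.00346). In the Halo line it was 1.07 (SE 0.49, adjusted p = 0.0962), and 0.080 without SOX9-Halo spheroid replicate 1 (adjusted p = 0.892).

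Ddit3 encodes CHOP, the factor tied to cell death under lasting stress (ENSMUSG00000025408, chromosome 10, bases 127124268 to 127132163, plus strand). It was the least stable of the integrated stress response members, at 56.3, 30.2 and 18.7 CPM in Halo-NLS, 28.5, 23.2 and 15.6 in SOX9-mEGFP budding organoids and 26.5, 18.1 and 9.71 in SOX9-Halo budding organoids. Spheroids had 31.0, 39.4 and 31.5 CPM in the mEGFP line and 35.2, 6.45 and 6.41 in the Halo line. In SOX9-Halo spheroids the 2 lower libraries lay under all others, while replicate 1 lay among the other conditions. With all 3, SOX9-Halo spheroids differed from Halo-NLS by -1.13 (SE 0.59, adjusted p = 0.127). Without replicate 1 the difference was -2.44 (adjusted p = 0.00128).

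**Figure D3:**
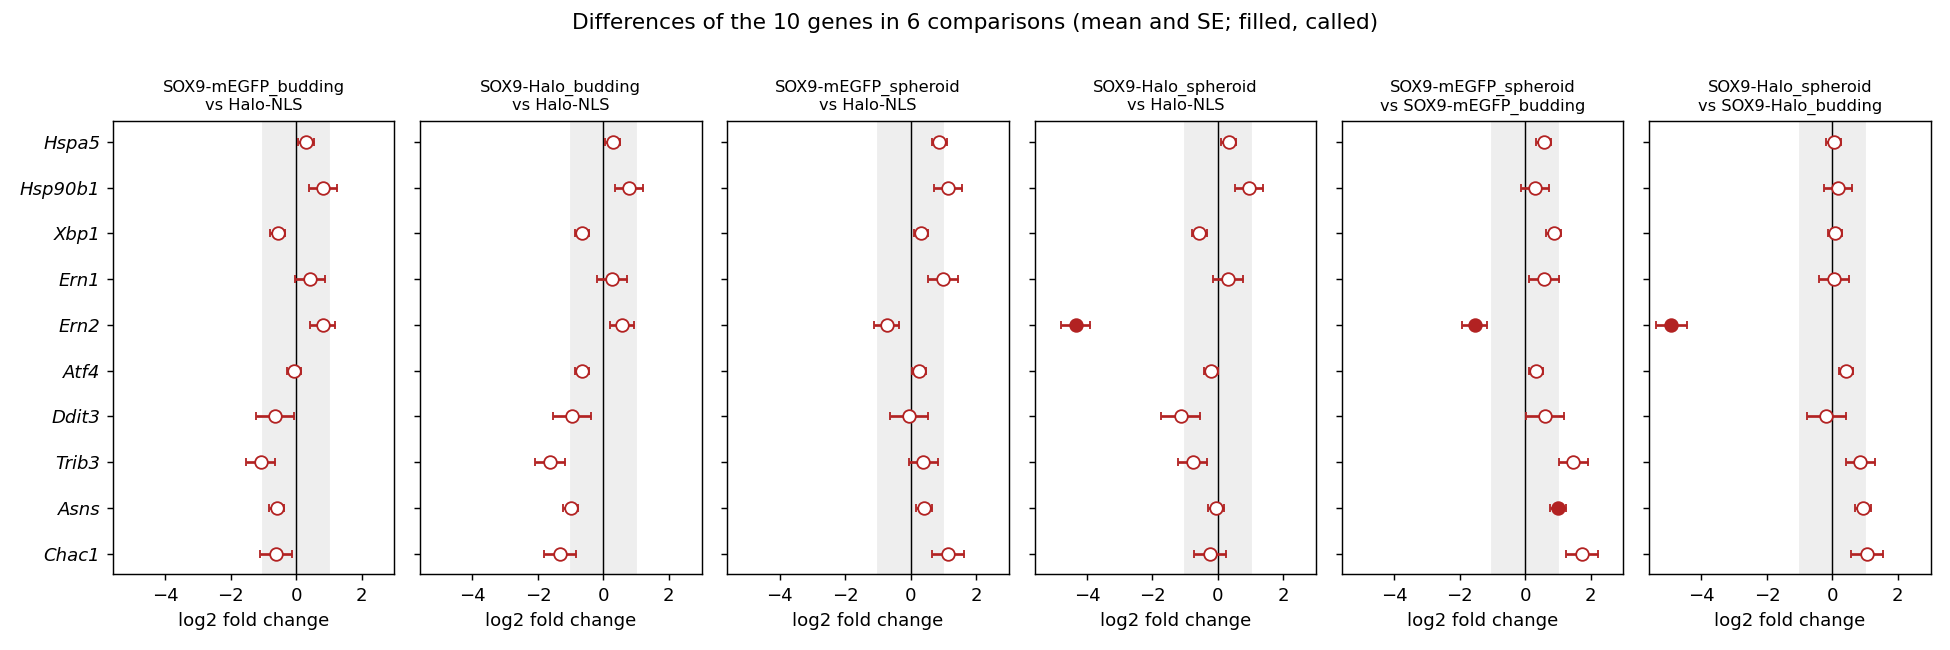
Log2 fold change with its standard error for the 10 genes in 6 comparisons, with called genes filled and the band of less than 1 on the log2 scale shaded. Ern2 is filled in 3 panels and Asns in 1. Of the integrated stress response members, Atf4, Trib3, Asns and Chac1 lie left of 0 in both budding panels. They lie right of 0 in both panels of spheroids against budding organoids. Ddit3 differs in the Halo panel of spheroids against budding organoids, at -0.18, and no integrated stress response member is filled there.

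By comparison, few members were called. SOX9-mEGFP and SOX9-Halo budding organoids against Halo-NLS gave 0 of 10 each, where 2.76% and 3.75% of all genes were called. At an unadjusted p under 0.05 there were 4 and 5 members, beside 34.4% and 37.5% of all genes. DESeq2 called 0 and 2, the latter Trib3 and Asns. Against Halo-NLS, SOX9-mEGFP spheroids gave 0 (27.5% of all genes), with 4 at an unadjusted p under 0.05 (56.7% of all genes) and 0 by DESeq2. SOX9-Halo spheroids gave 1, Ern2 (28.9% of all genes). These 4 comparisons share the Halo-NLS libraries. SOX9-mEGFP spheroids against their budding organoids gave 2 of 10, Ern2 lower and Asns higher (16.4% of all genes), with 7 members whose groups did not overlap beside 46% of all genes. SOX9-Halo spheroids against theirs gave 1, Ern2 (25.3% of all genes), with 3 not overlapping beside 52.8%. The 2 budding lines differed in 0 members (0.456% of all genes), with 1 at an unadjusted p under 0.05, Atf4 (8.37% of all genes), and 0 by DESeq2. The 2 spheroid lines differed in 1, Ern2 (13.2% of all genes).

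In 3 of the 5 conditions the 5 integrated stress response members shared their highest library. All 5 were highest in replicate 1 of Halo-NLS, of SOX9-mEGFP budding organoids and of SOX9-Halo spheroids, 3 of 5 in SOX9-Halo budding organoids and 0 of 5 in SOX9-mEGFP spheroids. In SOX9-mEGFP spheroids they split, as replicate 3 deviated from the mean of its condition by -0.34 log2 units for Atf4 and by 0.27 for Trib3 and 0.25 for Chac1. Of the 5 unfolded protein response members, 2 were highest in replicate 1 of Halo-NLS and of each budding line, 3 in that of the SOX9-Halo spheroids and 1 in that of the SOX9-mEGFP spheroids. Replicate 1 of the SOX9-Halo spheroids stood furthest out, at 1.63 log2 units over the mean of its condition for Ddit3. In it, 37 of 45 other genes on the ATF4 lists below were also at their highest of the 3 libraries (82.2%), including all 11 tRNA synthetases, beside 45.9% of all genes tested. Replicate 1 was highest for 15 of the 45 in Halo-NLS (33.3%, 34.8% of all genes), 25 in SOX9-mEGFP budding organoids (55.6%, 33.7% of all genes) and 9 in SOX9-Halo budding organoids (20%, 28.4% of all genes). In SOX9-mEGFP spheroids, 32 of the 45 were highest in replicate 3 (71.1%), beside 36.8% of all genes. Without SOX9-Halo spheroid replicate 1, the 2 spheroid lines differed in 5 members and not 1, all lower in the Halo line: Ern2, Xbp1 (-1.10, adjusted p = 0.00513), Ddit3 (-2.40, adjusted p = 0.00295), Trib3 (-1.87, adjusted p = 0.00571) and Chac1 (-2.37, adjusted p = 8.4e-04). In that fit 11.6% of all genes were called. This library had 314 CPM of Sox9, against 442 and 441 in the other two.

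**Figure D4:**
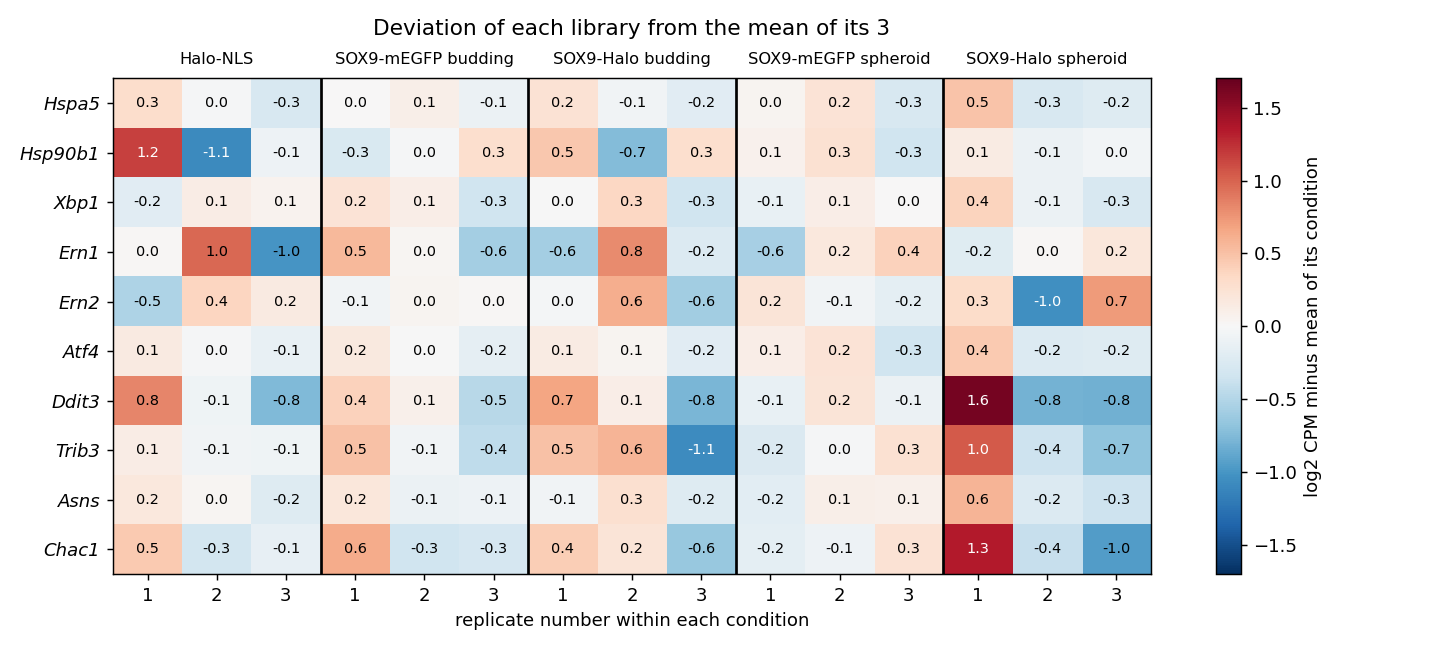
Deviation of each library from the mean of its 3 on the log2 CPM scale for the 10 genes, red above and blue below, with replicate numbers along the axis. Replicate 1 of the SOX9-Halo spheroids is red for all of Atf4, Ddit3, Trib3, Asns and Chac1, with 1.63 for Ddit3, and Halo-NLS replicate 1 stands out for Hsp90b1.

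Other genes of both pathways were read from 8 lists, which include the members. The list of amino acid synthesis and one-carbon genes under ATF4 (15 genes) had the largest median changes between budding organoids and spheroids. In the mEGFP line 7 of 15 rose and 1 fell, with a median log2 fold change of 1.07 where all genes had -0.04, and in the Halo line 6 rose and 1 fell, with a median of 1.01 where all genes had -0.08. Of all genes, 16.4% (mEGFP) and 25.3% (Halo) were called in these comparisons in either direction. Over the alternatives the rises numbered 3 to 9 and 5 to 8, with 3 in the mEGFP line without budding replicate 1 or 2. Called up in both were Psat1, Phgdh and Psph, the 3 enzymes that make serine, and Mthfd1l of mitochondrial folate metabolism. Psat1 went from 195, 200.4 and 295 CPM in SOX9-mEGFP budding organoids to 600.4, 689 and 701 in the spheroids (log2 1.53, SE 0.21, adjusted p = 6.2e-05). In the Halo line it went from 117, 112 and 138 to 1112, 848 and 741 (log2 2.88, SE 0.22, adjusted p = 1.0e-07). Psph rose by log2 1.88 (SE 0.25, adjusted p = 3.9e-05) and 1.22 (SE 0.24, adjusted p = 8.0e-04). The genes that fell were Aldh18a1 of proline synthesis in the mEGFP line (log2 fold change -1.73, SE 0.34, adjusted p = 0.00132) and Cth of cysteine synthesis in the Halo line (-4.08, SE 0.59, adjusted p = 4.7e-05).

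The same list stood lower in SOX9-Halo budding organoids than in Halo-NLS, where 5 of 15 fell (Psat1, Psph, Shmt2, Pck2 and Got1) and 0 rose, with a median of -0.95 beside 0.01 for all genes. Of all genes 3.75% were called in this comparison in either direction. Fitted on only the libraries compared, 0 of the 15 and 5 of 15266 genes in all (0.0328%) were called, and with DESeq2 6 of the 15 fell. In SOX9-mEGFP budding organoids 1 fell, Psph (-1.71, SE 0.25, adjusted p = 7.1e-04), and the median was -0.64. Against Halo-NLS the spheroids showed 2 rises and 1 fall in the mEGFP line and 2 rises and 2 falls in the Halo line, with medians of 0.39 and 0.01.

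Among 9 amino acid transporters, Slc7a5, which brings in large neutral amino acids, rose in both lines. It had 58.2, 50.3 and 89.9 CPM in SOX9-mEGFP budding organoids and 211, 255 and 495 in spheroids (log2 2.28, SE 0.36, adjusted p = 2.2e-04). In the Halo line the values were 28.7, 60.9 and 61.6 against 597, 456 and 494 (log2 3.35, SE 0.38, adjusted p = 4.3e-06). Its partner Slc3a2 rose in the Halo line (1.34, SE 0.25, adjusted p = 4.5e-04) and not by this test in the mEGFP line (0.75, SE 0.24, adjusted p = 0.032), and the other 7 transporters were not called in either. Called were thus 1 and 2 of the 9, beside 16.4% and 25.3% of all genes.

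Of the 15 regulators and feedback genes of ATF4 and CHOP, Eif4ebp1, a brake on cap-dependent translation, was called up in both lines (1.02, SE 0.26, adjusted p = 0.00723, and 1.41, SE 0.26, adjusted p = 4.3e-04), and Sesn2 in the Halo line (1.40, SE 0.22, adjusted p = 9.2e-05). List medians were 0.89 and 0.86. Of 11 tRNA synthetases, Cars1 rose in both (1.20, SE 0.18, adjusted p = 1.5e-04, and 1.15, SE 0.18, adjusted p = 1.2e-04) and Wars1 in the mEGFP line (1.28, SE 0.19, adjusted p = 9.5e-05). All 11 had positive differences in both lines, from 0.03 to 1.28 and from 0.06 to 1.15. Called were thus 1 and 2 of the 15 regulators and 2 and 1 of the 11 synthetases, beside 16.4% and 25.3% of all genes.

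**Figure D5:**
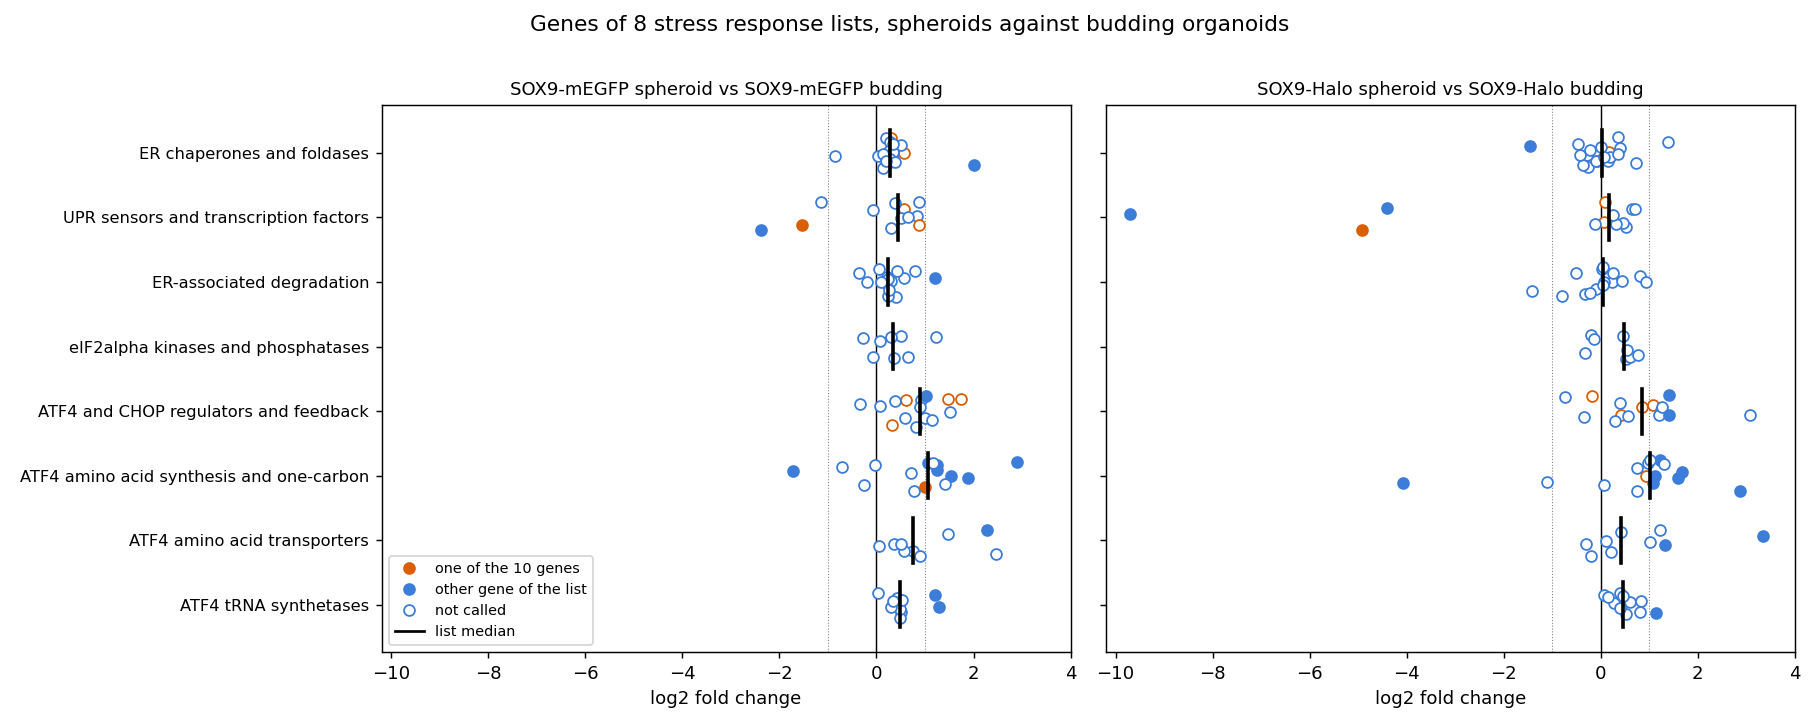
Log2 fold change of each gene of 8 lists, spheroids against budding organoids of the mEGFP line (left) and the Halo line (right), with members orange, called genes filled, list medians as bars and dotted lines at a log2 fold change of 1 in size. The medians of the amino acid synthesis list stand at 1.07 and 1.01, and those of the ER chaperone list at 0.28 and 0.03.

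Few ER folding and degradation genes were called in the same comparisons, in which 16.4% (mEGFP) and 25.3% (Halo) of all genes were. Of 20 ER chaperones and foldases, 1 rose in SOX9-mEGFP spheroids against budding organoids, the oxidase Ero1a, from 703, 440.3 and 392 CPM to 1853, 2182 and 2179 (log2 2.02, SE 0.44, adjusted p = 0.00274). In the Halo line 0 rose and 1 fell, Ero1b (-1.46, SE 0.36, adjusted p = 0.00422), and Ero1a had a difference of 1.39 (SE 0.43, adjusted p = 0.0177). P4hb, the most abundant of the list, differed by 0.04 and -0.09 (SE 0.31 in both). Of 15 tested genes of ER-associated degradation (16 listed), 1 rose in the mEGFP line, Herpud1 (1.20, SE 0.26, adjusted p = 0.00259), and 0 changed in the Halo line at an adjusted p of at most 0.01 with the fold threshold (2 without it). Of 8 kinases and phosphatases of eIF2alpha, 0 were called in either line. Against Halo-NLS, 27.5% of all genes were called in SOX9-mEGFP spheroids and 28.9% in SOX9-Halo spheroids, in either direction. Of the 20 ER chaperones and foldases, 4 rose against Halo-NLS in SOX9-mEGFP spheroids (Canx, Pdia3, Dnajc3 and Ero1a) and 1 in SOX9-Halo spheroids (Canx). Eif2ak3, the gene of PERK, rose in both (1.24, SE 0.21, adjusted p = 2.9e-04, and 1.30, SE 0.21, adjusted p = 1.5e-04). Of the sensors and transcription factors, 3 of 12 rose against Halo-NLS in each spheroid line. In the same comparisons 1 fell in the mEGFP line (Creb3l3) and 3 in the Halo line (Creb3l1, Creb3l3 and Ern2). Beside Eif2ak3 the rises were Mbtps2, a protease that cuts ATF6, in both (2.14, SE 0.45, adjusted p = 0.00125, and 1.69, SE 0.44, adjusted p = 0.00528), Atf6 in the mEGFP line (1.66, SE 0.35, adjusted p = 0.00143) and Creb3l2 in the Halo line (1.38, SE 0.37, adjusted p = 0.00613). Fitted on only the libraries compared, 0 rose in the mEGFP line and 1 in the Halo line.

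In the list of 12 sensors and transcription factors, spheroids against budding organoids gave 2 falls in the mEGFP line and 3 in the Halo line, and 0 rises. Of all genes, 16.4% and 25.3% were called in these comparisons in either direction. The falls in the mEGFP line numbered 0 to 3 over the alternatives, with 0 without SOX9-mEGFP budding replicate 1 or spheroid replicate 2 or 3. Besides Ern2 these were Creb3l3 and, in the Halo line, Creb3l1, membrane-bound relatives of ATF6. Creb3l3, which enterocytes and liver use in lipid metabolism, had 204, 171 and 42.8 CPM in SOX9-mEGFP budding organoids and 36.0, 25.9 and 18.8 in spheroids (-2.37, SE 0.50, adjusted p = 0.00222). In the Halo line it had 208, 211 and 97.4 against 0.388, 0.113 and 0.134 (-9.71, SE 0.74, adjusted p = 9.9e-08), and the lines differed (-7.34, SE 0.83, adjusted p = 2.6e-05). The sum of 6 enterocyte markers was 1259 to 9746 CPM in Halo-NLS and budding libraries, 204 to 507 in SOX9-mEGFP spheroids and 1.86 to 5.69 in SOX9-Halo spheroids, and its part in these values was not tested. Creb3l1 fell in the Halo line (-4.41, SE 0.56, adjusted p = 1.2e-05), and the lines differed (-3.28, SE 0.70, adjusted p = 0.005).

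Finally, the genes nearest in profile were sought by the root mean square difference of mean-centred log2 CPM over the 15 libraries, among 10993 genes. Nearest to Asns was Mthfd2, a mitochondrial folate enzyme, at 0.156, where the profile of Asns itself had an SD of 0.546. Nearest to Hspa5 were Grpel2 at 0.139, Hspa9 at 0.141 and Pdxdc1 at 0.149 (SD of Hspa5 0.363), Grpel2 and Hspa9 being chaperone genes of the mitochondrion. Nearest to Ern2 were Mcf2l at 0.502, Gm44985 at 0.523 and Pkdcc at 0.540 (SD of Ern2 1.92). The measure is not scaled to the SD of a gene, so these distances cannot be compared between genes of unlike SD. Slc25a33 at 0.230 and Card19 at 0.236 came next for Asns.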

How the data were processed

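Poly-A RNA of 15 libraries, 3 in each of 5 conditions, was analysed from the deposited counts. The authors trimmed reads with cutadapt 4.5, aligned them with STAR to mm39, kept unique alignments and counted reads per gene with HTSeq 2.0.2 in union mode without strand, so that the deposited counts are whole numbers and not normalized. Their comparison tables hold fold changes and p-values of their own tests and were not used, and 0 per-sample columns were left unassigned. Counts were filtered with filterByExpr, scaled with TMM and fitted with the quasi-likelihood test of edgeR 4.0.16 over all 15 libraries with Benjamini-Hochberg adjustment over 17560 genes (common coefficient of variation 0.302), in R 4.3.3. The SE is the log2 fold change divided by the root of F. The call thresholds follow the study. The fit was tested on simulated data.

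All 10 members were named. From each list the 3 most abundant genes and up to 2 rises and 2 falls called in both lines were eligible. Genes in counts of 5 or fewer were named after their values were seen, as were Slc25a33 and other genes singled out. Members and lists were chosen with earlier results of these data known. The 3 same-numbered pairs of SOX9-Halo budding organoids and spheroids had correlated deviations (r = 0.275, 0.162 and 0.240). This met the rule set for pairing, all r over 0.1, though the labels state no pairing of these libraries. In this comparison the replicate block changed no call of a member. Alternatives were RLE, library sizes alone, no filter, no fold threshold, DESeq2 1.42.0, only the libraries compared, the replicate block and each library left out. Gene positions are those of GENCODE M39, and unstranded counting cannot separate antisense reads. Figures used Python 3.11.15 and matplotlib 3.10.9.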

Additional observations from a re-analysis of the deposited data

Results flagged for a closer look

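Ern2 was singled out because its change from budding organoids to spheroids differed between the SOX9 lines by a test of that difference, with a log2 fold change in the SOX9-Halo line minus that in the SOX9-mEGFP line of -3.38 (SE 0.57, adjusted p = 8.8e-04 by edgeR). Ern2 was lower in all 3 spheroid libraries than in all 3 budding libraries of each line.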

How the results depend on the processing

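Of 1980 gene-level values over 22 alternatives, 1919 kept their side of the thresholds, 44 were newly called and 17 lost. Among called values 0 changed sign, but some uncalled values did. An example is Chac1 in SOX9-Halo spheroids against Halo-NLS, whose log2 difference ran from -1.23 to 0.110. Leaving out each library in turn, the members called ran from 0 to 1 for each budding line against Halo-NLS, 0 to 2 for SOX9-mEGFP and 1 to 2 for SOX9-Halo spheroids against Halo-NLS, 0 to 4 for spheroids against budding organoids in the mEGFP line and 1 to 2 in the Halo line, 0 to 0 between budding lines, 1 to 5 between spheroid lines and 1 to 1 for the test of the difference between lines. Counts moved by over 1.5 times without Halo-NLS replicate 1 (the 4 comparisons with Halo-NLS), without SOX9-Halo spheroid replicate 1 (3 comparisons of spheroids, up to 5 members between the spheroid lines) or 2, without each of the 6 libraries of the mEGFP line, and in the Halo line, through Asns, without SOX9-Halo budding replicate 2 (1.09, adjusted p = 0.00492) or SOX9-Halo spheroid replicate 2 (1.02, adjusted p = 0.00705) or 3 (1.05, adjusted p = 0.00441).

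Without the low-count filter the counts were 1 for SOX9-mEGFP budding and 2 for SOX9-Halo budding organoids against Halo-NLS, 3 for each spheroid line against Halo-NLS, 4 and 2 for spheroids against budding organoids in the mEGFP and Halo lines and 4 between spheroid lines, where 3.76%, 4.45%, 10.4%, 10.7%, 6.31%, 9.1% and 5.61% of 52932 genes were called. DESeq2 called 2 for SOX9-Halo budding organoids against Halo-NLS (3.07% of all genes). In the mEGFP line 3 were called by DESeq2 (5.97% of all genes), by fits on only the libraries compared (18.6%) and by the replicate block on those (19%). With RLE 1 was called in the mEGFP line, as Asns came to 0.98. With library sizes alone 1 was called for SOX9-mEGFP spheroids against Halo-NLS, and the median of all genes against Halo-NLS stood at 0.27 to 0.31 on the log2 scale over the 4 comparisons. With no fold threshold 1 was called for SOX9-mEGFP spheroids against Halo-NLS, 2 for the Halo line and 2 between spheroid lines. The replicate block over all libraries called 4 in the mEGFP line (Ern2, Asns, Trib3 and Chac1) and 2 between spheroid lines, and the replicate block on only the libraries compared called 2 for SOX9-Halo spheroids against Halo-NLS. Outside the Halo line the replicate numbers did not meet the rule for pairing. Of 24 same-numbered pairs 12 had r over 0.1 (median 0.130). Where not given, the cause was not tested.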
